A study of Mus musculus with 2 samples.

Results

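Cell cycle genes were followed through the cortical cells of the male mouse adrenal gland, as a module of 32 genes out of the 31057 features measured. The 32 were taken by symbol: the G1 cyclin Ccnd1, 12 genes of DNA replication and S phase (Pcna, Mcm2, Mcm3, Mcm5, Mcm6, Tyms, Rrm2, Gins2, Hells, Uhrf1, Tk1 and Esco2) and 19 genes of G2 and mitosis (Mki67, Top2a, Cdk1, Ccna2, Ccnb1, Ccnb2, Birc5, Cenpf, Cenpe, Tpx2, Aurkb, Ube2c, Nusap1, Kif11, Bub1, Plk1, Cdc20, Hmmr and Pimreg). All 32 were found in both libraries, and all 32 passed the low-count filter of the comparison between zone classes.

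The mice were males aged 15 weeks, labelled WT and carrying the Rosa mTmG reporter and SF1-Cre, a recombinase driven in cells of steroid-making origin. From 26 dissociated adrenals, single cells positive for the DNA dye Vybrant DyeCycle Ruby and negative for DAPI were sorted and run on a droplet 3′ RNA kit, version 3.1. There is 1 group with 2 libraries, and the sources used here do not say how the animals were divided between them, so the spread between libraries may be technical. Library 1 held 92905273 UMIs (counted RNA molecules) in 5040 barcodes, library 2 held 28023733 UMIs in 2288 barcodes, and 4 barcode sequences occurred in both.

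The outer zone of the cortex, the zona glomerulosa, makes aldosterone with the enzyme encoded by Cyp11b2, and the zona fasciculata makes corticosterone with that of Cyp11b1. The cortex renews itself throughout life from cells at its periphery, which move inward and change zone. A dividing cell passes through G1, where cyclin D starts the commitment, S phase, where the replication machinery copies DNA, and G2 and mitosis, driven by cyclins A and B with Cdk1 and carried out by spindle and kinetochore proteins.

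Cortical cells were those with a scaled level of at least 200 of Star, the cholesterol carrier of steroid synthesis, and at least 5000 UMIs, 4368 cells in library 1 and 1603 in library 2. They were sorted into 6 classes by CPM, the UMIs of a gene scaled to a common total per cell or per sum of cells. Aldh1a1-high cells had at least 500 of Aldh1a1 (28 and 26 cells in libraries 1 and 2). Of the rest, Cyp11b2-only cells had at least 200 of Cyp11b2 and under 300 of Cyp11b1 (470 and 230 cells), and cells with both had at least those amounts (34 and 17). Cells with less Cyp11b2 were low-both with under 300 of Cyp11b1 (2920 and 913), intermediate from 300 to under 1000 (481 and 154), and Cyp11b1-high from 1000 (435 and 263). The low-both class is named by its rule and not as a zone. Wnt4, a zona glomerulosa signal that no class was cut on, stood at 2389 and 2182 CPM in its cells with fewer than 2 G2/M genes. Over all cortical cells with fewer than 2 such genes it stood at 2241 and 1877. A list of 7 zona glomerulosa markers, Cyp11b2 and Wnt4 among them, summed to 4991 and 5682 CPM in low-both and 5752 and 6786 in Cyp11b2-only cells. It summed to 4381 and 4455 in intermediate, 2826 and 2662 in Cyp11b1-high and 1118 and 349.3 in Aldh1a1-high cells. Cyp11b2 also cut the classes, so part of the order of these sums was built in. Median depth was 18437 and 15816 UMIs in low-both cells, 21014.5 and 18987.5 in Cyp11b2-only cells, so shares of cells were taken after thinning each cell to 5000 UMIs.

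Cells with several G2/M genes lay mostly in the low-both class. A cell was called G2/M-positive with UMIs of at least 2 of the 19 G2/M genes after thinning, which held for 91 of 4368 cells in library 1 (2.08%, exact 95% interval 1.68 to 2.55) and 37 of 1603 in library 2 (2.31%, 1.63 to 3.17). Low-both cells made up 66.85% and 57.0% of cortical cells and 91.2% and 83.8% of the G2/M-positive ones. This call was added after the data were seen, beside the call from at least 3 of 31 genes that is given with the S phase genes. Intervals cover counting error only, and the shares were not tested across the 2 libraries.

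Within the low-both class 83 of 2920 cells (2.84%, 2.27 to 3.51) and 31 of 913 (3.40%, 2.32 to 4.79) were G2/M-positive. Among Cyp11b2-only cells these were 3 of 470 (0.638%, 0.132 to 1.85) and 1 of 230 (0.435%, 0.0110 to 2.40), and among Cyp11b1-high cells 3 of 435 (0.690%, 0.142 to 2.00) and 1 of 263 (0.380%, 0.00963 to 2.10). The low-both share was above both others in each library. Low-both exceeded Cyp11b2-only by 2.20 percentage points in library 1 (95% interval 0.867 to 2.99) and 2.96 in library 2 (0.740 to 4.39), and exceeded Cyp11b1-high by 2.15 (0.727 to 2.96) and 3.02 (1.01 to 4.43). With cortical cells taken at a Star minimum of 1000, the excess over Cyp11b2-only was 0.789 points in library 1 (-0.505 to 1.47) and 1.36 in library 2 (-0.410 to 2.42). The excess over Cyp11b1-high was then 0.702 (-0.748 to 1.42) and 0.969 (-0.910 to 2.07). All 4 intervals included 0 at this minimum.

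In the intermediate class the values of the libraries lay further apart, with overlapping intervals: 2 of 481 cells (0.416%, 0.0504 to 1.49) and 4 of 154 (2.60%, 0.712 to 6.52) were G2/M-positive. None of 34 and 17 cells with both enzymes was called, nor any of 28 and 26 Aldh1a1-high cells. With so few cells a count of 0 still allows shares above those seen in the low-both class. Taken as 3 cells of the total, the limit was 8.82% and 17.6% of the cells with both enzymes and 10.7% and 11.5% of the Aldh1a1-high cells, and the exact 95% upper bounds were 10.3% and 19.5%, and 12.3% and 13.2%. Leukocytes outside the Star threshold, a reference for another cell type in the sort, gave 0 of 37 and 0 of 25 cells at medians of 7995 and 6865 UMIs.

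**Figure D1:**
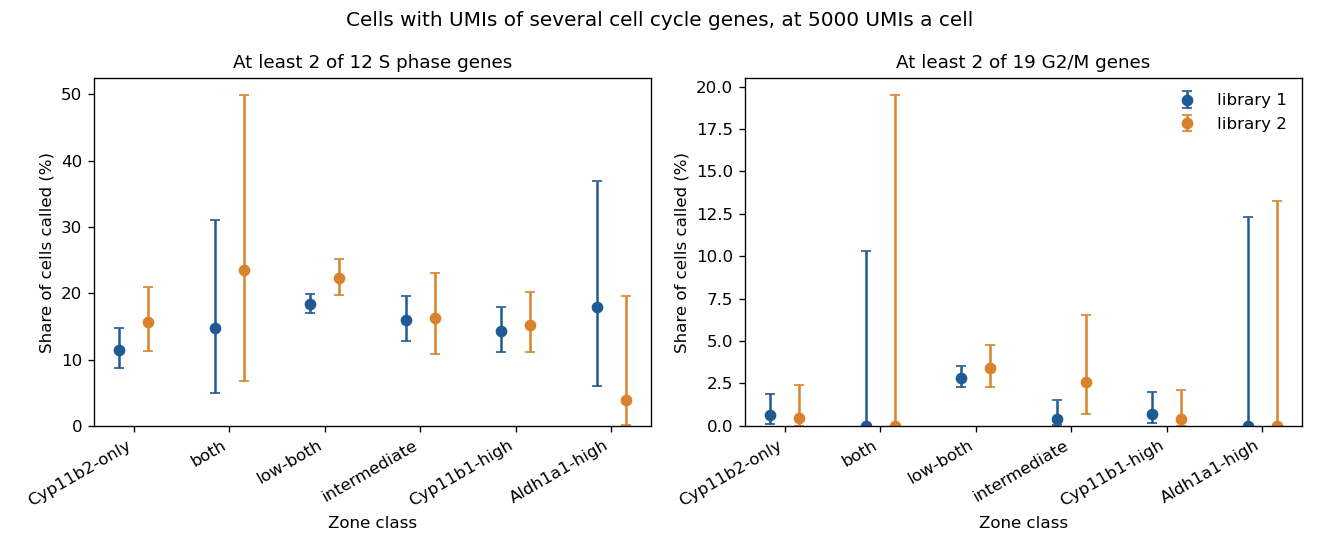
Share of cells (percent, vertical axis) with UMIs of at least 2 S phase genes (left) or at least 2 G2/M genes (right) after thinning to 5000 UMIs, by zone class, with exact 95% intervals for counting error. The low-both class reached 2.84% and 3.40% for G2/M genes against under 1% in the Cyp11b2-only and Cyp11b1-high classes, while S phase calls lay between 11.5% and 22.3% in those 3 classes.

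The S phase genes gave a broader picture. At least 2 of the 12 were seen in 18.4% and 22.3% of low-both cells, 11.5% and 15.7% of Cyp11b2-only cells, and 14.3% and 15.2% of Cyp11b1-high cells. Low-both was again the highest of these 3 classes, and intermediate cells are compared gene by gene below. At least 3 of the 31 genes other than Ccnd1 were seen in 7.91% and 9.31% of low-both cells, 3.83% and 4.78% of Cyp11b2-only cells, and 3.91% and 6.08% of Cyp11b1-high cells. In library 2 the interval of the low-both minus Cyp11b1-high difference, 3.23 points, reached from -0.735 to 6.32.

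Gene by gene, the 19 G2/M genes were each seen in a larger share of low-both than of Cyp11b2-only cells, and of Cyp11b1-high cells, in both libraries. Their shares in the low-both class ran from 0.445% (Bub1, a spindle checkpoint kinase) to 2.84% (Cdk1) in library 1 and from 0.986% (Bub1) to 3.83% (Cenpf) in library 2. Mki67, the proliferation antigen Ki-67, was seen in 70 of 2920 and 28 of 913 low-both cells (2.40% and 3.07%), in 1 of 470 and 2 of 230 Cyp11b2-only cells, and in 2 of 435 and 1 of 263 Cyp11b1-high cells. Of the 12 S phase genes, all 12 were seen in a larger share of low-both than of Cyp11b2-only cells in both libraries. For 10 the share was also larger than in Cyp11b1-high cells, the exceptions being Pcna and Mcm5. Against intermediate cells the low-both share was larger in both libraries for 5 of the 12. The exceptions there were Pcna, Mcm3, Tyms, Rrm2, Gins2, Uhrf1 and Tk1. Of the 19 G2/M genes, 18 had a larger share in low-both than in intermediate cells in both libraries, all but Cdc20.

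The 2 gene sets also differed in letters near their start sites. Whether these letters bear on which cells held the genes was not tested. RefSeq windows of 300 bases (GRCm38.p6, 250 before and 50 after the start) were at hand for 25 of the 32 genes. They were searched on both strands for TTTGAA (the CHR element, bound by MuvB complexes), CCAAT (the site of NF-Y) and TTTNNCGC (a form of the E2F site). Matches of different motifs may overlap in part. TTTGAA was found in 10 of 15 windows of G2/M genes (66.7%) and 1 of 11 windows of 10 S phase genes (9.09%), against 17.9% of all 32851 windows. TTTNNCGC was found in 1 of 15 (6.67%) and 7 of 11 (63.6%), against 5.17% of all, and CCAAT in 13 of 15 (86.7%) and 8 of 11 (72.7%), against 37.4%. A match is a description of letters, not a bound site. The 250 bases before the start are printed 5′ to 3′ on the gene's strand, with all matches to the 3 motifs in capitals, for Cdc20 (chr4:118437344-118437593, minus strand) and Ube2c (chr2:164769679-164769928, plus strand), a co-activator and a ubiquitin-conjugating enzyme of the anaphase-promoting complex, for Cdk1 (chr10:69352913-69353162, minus strand), whose window held all 3 motifs, and for Mcm6 (chr1:128359706-128359955, minus strand), a helicase subunit whose window held TTTNNCGC without TTTGAA.
Cdc20: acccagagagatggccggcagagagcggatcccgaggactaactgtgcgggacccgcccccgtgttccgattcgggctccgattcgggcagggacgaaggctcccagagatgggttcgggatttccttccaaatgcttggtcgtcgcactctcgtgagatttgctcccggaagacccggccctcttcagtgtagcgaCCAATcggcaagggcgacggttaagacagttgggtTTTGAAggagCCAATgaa
Ube2c: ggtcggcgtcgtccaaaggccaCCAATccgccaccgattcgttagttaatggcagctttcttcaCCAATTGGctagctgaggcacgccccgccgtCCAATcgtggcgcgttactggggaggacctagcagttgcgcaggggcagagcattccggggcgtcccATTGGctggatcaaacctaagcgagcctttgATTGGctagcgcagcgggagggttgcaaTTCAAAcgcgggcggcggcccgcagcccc
Cdk1: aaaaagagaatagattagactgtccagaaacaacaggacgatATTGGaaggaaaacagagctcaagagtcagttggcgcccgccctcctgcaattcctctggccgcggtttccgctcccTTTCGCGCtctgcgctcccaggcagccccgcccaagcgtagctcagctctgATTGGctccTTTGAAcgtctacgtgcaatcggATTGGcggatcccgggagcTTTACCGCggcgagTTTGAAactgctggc
Mcm6: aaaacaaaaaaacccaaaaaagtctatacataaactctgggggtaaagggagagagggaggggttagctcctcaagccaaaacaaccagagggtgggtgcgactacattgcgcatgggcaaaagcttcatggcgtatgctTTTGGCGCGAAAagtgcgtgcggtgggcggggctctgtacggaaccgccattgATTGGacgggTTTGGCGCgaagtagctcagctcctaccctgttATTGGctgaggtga

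The genes differed in how often a cell held others of the module. Over all cortical cells, 15 of the 19 G2/M genes were found mainly beside others: of the cells with a UMI of the gene, 72.9% to 100% in library 1 and 66.7% to 100% in library 2 also had UMIs of at least 2 other G2/M genes. Hmmr, a spindle and hyaluronan-binding protein, had such company in 97.6% and 93.8% of its 41 and 16 cells, and Ccnb1, cyclin B1, in 96.4% and 100% of its 28 and 11 cells. Pimreg, a mitotic regulator, had it in all of its 18 and 12 cells.

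The exceptions among the G2/M genes were Cdk1, Cdc20, Cenpf and Cenpe. Cdk1, the mitotic kinase, had company in 38.2% (28.8 to 48.4) and 37.1% (21.5 to 55.1) of its 102 and 35 cells. Cdc20 had it in 48.1% (36.9 to 59.5) and 46.9% (29.1 to 65.3) of its 81 and 32 cells. These shares lay below 50% at this depth, but only the interval of Cdk1 in library 1 did so as a whole. Cenpf and Cenpe, kinetochore proteins, had company in 53.6% and 61.5%, and in 62.8% and 50%, of their cells.

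The S phase genes split. Rrm2 (the ribonucleotide reductase subunit), Tk1 (thymidine kinase), Uhrf1 (a reader of replicated DNA methylation) and Esco2 (a cohesin acetyltransferase) had G2/M company in 65.9% to 100% and 50% to 100% of their cells. The other 8, from the replication clamp Pcna and the helicase subunits Mcm2, Mcm3, Mcm5 and Mcm6 to Tyms, Gins2 and Hells, had it in 4.09% to 19.3% and 2.48% to 16.3%. Pcna was seen in 16.3% and 16.7% of cortical cells and Mcm2 in 16.3% and 20.1%, against 1.12% and 0.998% for Rrm2. Leukocytes outside the Star threshold showed Pcna in 21.6% and 20% of cells and Mcm2 in 10.8% and 0% (0 of 25 cells, which allows up to 12%), so a UMI of Pcna was no rarer there.

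**Figure D2:**
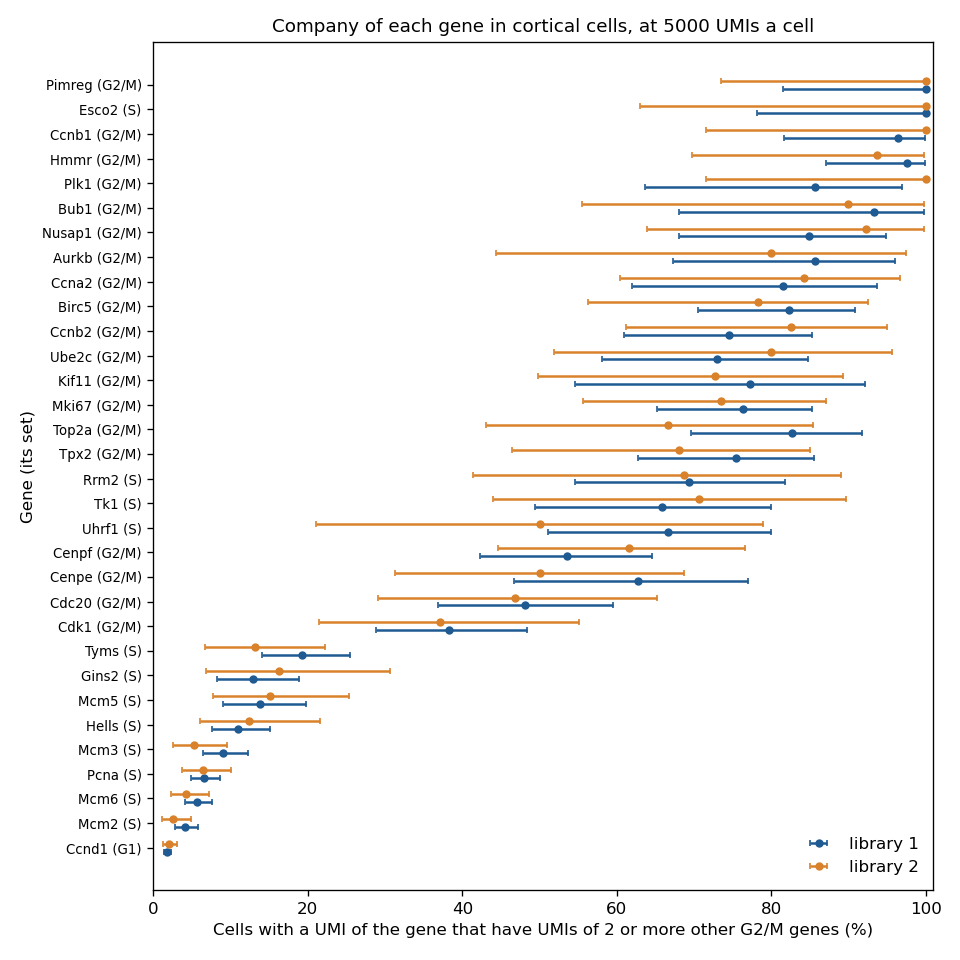
For each of the 32 genes, the percent of cells with its UMI that also had UMIs of at least 2 other G2/M genes (horizontal axis), in cortical cells thinned to 5000 UMIs, with exact 95% intervals. Esco2, Rrm2, Tk1 and Uhrf1 lie among the G2/M genes, and the other 8 S phase genes and Ccnd1 lie below 20%.

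Pairs of G2/M genes were seen together in a median of 46.5 (library 1) and 43.1 (library 2) times as many cells as the product of their shares, over 171 pairs. The ratio was 4.27 and 3.80 over 66 pairs within the S phase set and 6.19 and 4.51 over 228 pairs between the sets. This ratio cannot exceed 1 divided by the share of cells with the commoner gene, so it has a lower ceiling for genes seen in many cells, such as Pcna and Mcm2, and the medians of the sets are not compared. Pairs with Ccnd1 had medians of 0.882 and 0.886 over 31 pairs, of which 7 and 10 were above 1, and the ratio with Pcna was 1.03 and 1.04. At least 2 genes of each set were found in 55 of the 91 G2/M-positive cells of library 1 and 18 of the 37 of library 2. Pcna, which is outside the G2/M rule, was seen in 51.6% (40.9 to 62.3) and 45.9% (29.5 to 63.1) of G2/M-positive cells against 15.5% and 15.96% of other cortical cells, and Ccnd1 in 64.8% and 59.5% against 74.4% and 68.8%.

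Summed levels were compared between zone classes with edgeR's quasi-likelihood test on UMIs summed per class and library, with a library term. P-values were adjusted by Benjamini-Hochberg over 12102 genes, and log2 differences are between summed levels. In low-both against Cyp11b2-only cells, 30 of the 32 genes were higher and none was lower, at an adjusted p under 0.05 as throughout. Over all genes 5.94% were higher and 6.99% lower. DESeq2 called 14 of the 32 higher and none lower, and at an unadjusted p under 0.05 none was lower by either tool. The median log2 difference of the 32 was 2.29, against 0.02 over all genes.

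Hmmr had the largest log2 difference of the 32 genes. It stood at 9.275 and 18.8 CPM in low-both cells of libraries 1 and 2, against 0.895 and 0.236 in Cyp11b2-only cells, a log2 difference of 4.05 ± 0.49 (SE, n = 2 libraries, edgeR adjusted p = 3.11e-05). Top2a, the topoisomerase that untangles chromosomes, stood at 18.0 and 22.1 against 3.48 and 0.472, a log2 difference of 2.85 ± 0.30 (adjusted p = 9.16e-06, edgeR). Mki67 stood at 25.5 and 47.1 against 8.85 and 1.18, a log2 difference of 2.24 ± 0.39 (adjusted p = 0.000844, edgeR). For these 3 genes both low-both values lay above both Cyp11b2-only values. All 19 G2/M genes were higher, from 1.72 for Aurkb, a kinase of chromosome attachment, to 4.05 for Hmmr.

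Few cells held these UMIs on the Cyp11b2-only side. Of its 89 Mki67 UMIs in library 1, 87 were in 1 cell of 470, and library 2 had 5 UMIs in 4 cells. For all 19 G2/M genes at least 50% of the Cyp11b2-only UMIs of library 1 lay in 1 cell, with a median of 87.5%, whereas in low-both cells the largest cell held a median of 8.23% and 20% in libraries 1 and 2. The log2 difference of Mki67 was 1.47 in library 1 and 5.04 in library 2, and all 30 genes called kept their sign in each library. A low level per cell and few cells with the gene cannot be told apart in such sums.

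Differences were smaller for most S phase genes and closer between libraries. Mcm3 stood at 28.1 and 34.4 CPM in low-both and 13.3 and 14.6 in Cyp11b2-only cells, a log2 difference of 1.09 ± 0.11 (edgeR adjusted p = 4.13e-06). Pcna stood at 49.05 and 48.3 against 34.3 and 32.8, or 0.48 ± 0.08 (adjusted p = 0.000678, edgeR). Rrm2, with 9.80 and 10.8 against 1.09 and 0.944, differed by 3.21 ± 0.29 (adjusted p = 1.13e-06, edgeR). Mcm2 did not pass, at 41.4 and 51.2 against 37.6 and 51.7, a log2 difference of 0.03 ± 0.09. Esco2, Uhrf1 and Tk1 lay with Rrm2 above 2 on the log2 scale, and the other S phase genes called lay between 0.48 and 1.09.

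**Figure D3:**
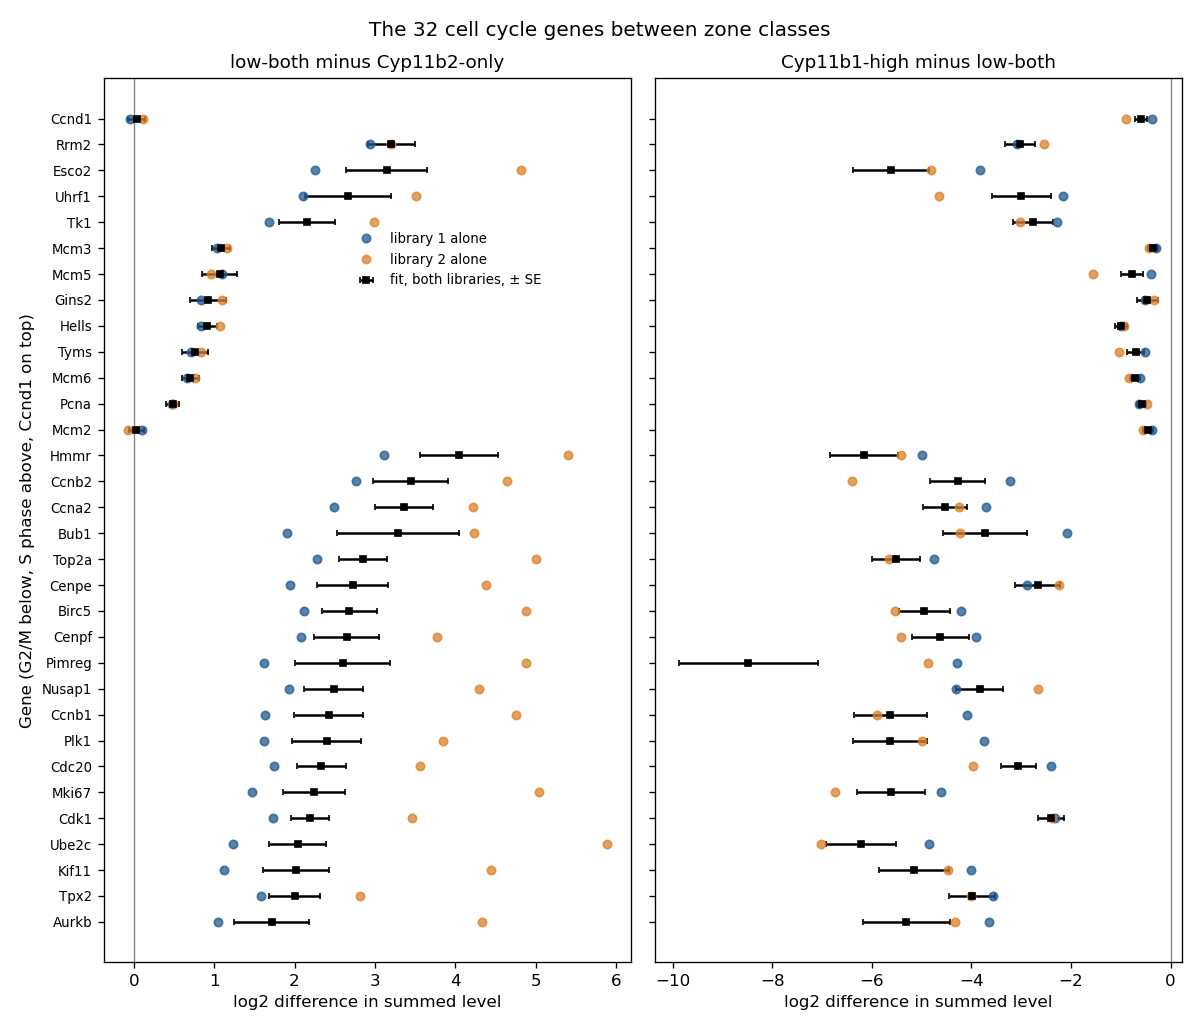
log2 differences in summed level of the 32 genes (horizontal axis) for low-both minus Cyp11b2-only and Cyp11b1-high minus low-both, from the fit with SE (squares) and in each library alone (circles). Both panels share the low-both sums; 19 of 19 G2/M genes lie right of 0 on the left and left of 0 on the right, and library 2 lies farther out for most G2/M genes on the left.

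When the G2/M-positive cells were left out of every class, 4 of the 30 calls stayed. They were Mcm3 (log2 difference 0.79 ± 0.11, edgeR adjusted p = 0.000108), Mcm6 (0.52 ± 0.10), Cdk1 (1.64 ± 0.35) and Hells (0.45 ± 0.13). UMIs of the G2/M genes chose the cells left out, so a loss of G2/M calls was built in. In every contrast without these cells, Esco2 and all G2/M genes but Cdk1, Cdc20, Cenpf, Cenpe and Tpx2 fell under the low-count filter, untested. The set of calls was also sensitive to how cells were classed and counted: 11 of the 32 were called higher with classes cut after thinning, 14 with sums of thinned cells, 17 at a Star minimum of 1000 and 1 (Rrm2) without the library term.

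In intermediate against Cyp11b2-only cells, which share the Cyp11b2-only sums with the contrast above, 9 genes were higher and none lower, against 6.73% of all genes higher and 9.7% lower. The 9 were Top2a and 8 S phase genes, Pcna, Mcm3, Mcm6, Rrm2, Gins2, Hells, Uhrf1 and Tk1. In libraries 1 and 2, 1 intermediate cell held 55.6% and 86.7% of the Top2a UMIs and 65.0% and 66.7% of those of Rrm2. For Uhrf1 these were 24.1% and 66.7%, and for Tk1 27.5% and 100%. For Pcna, Mcm3, Mcm6, Gins2 and Hells the largest cell held 6.12% (Mcm3) to 10.3% (Hells) in library 1 and 18.5% (Mcm6) to 35.9% (Hells) in library 2. At an unadjusted p under 0.05, 1 was lower with edgeR and 0 with DESeq2. Mcm3 stood at 28.5 and 39.6 CPM in intermediate cells, above both Cyp11b2-only values, a log2 difference of 1.11 ± 0.13 (edgeR adjusted p = 1.13e-05). Gins2, a subunit of the replicative helicase, stood at 10.45 and 12.65 against 5.27 and 3.54, or 1.11 ± 0.26 (adjusted p = 0.00655, edgeR). DESeq2 called 6 of the 9. With the G2/M-positive cells left out, Mcm3 and Gins2 were the ones of the 9 still called, and Cdk1 was called higher as well. Top2a was then under the low-count filter and not tested. With classes cut after thinning, with sums of thinned cells, or without the library term, Mcm3 alone was called. With classes cut after thinning Top2a turned to -0.60, Rrm2 to -1.24 and Tk1 to -0.034 on the log2 scale. At a Star minimum of 1000, 5 members were called higher and 3 lower, Cenpf, Tpx2 and Ube2c.

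Against low-both, in contrasts added after the data were seen and sharing the low-both sums, intermediate cells had 18 of the 32 genes lower, 16 of them G2/M genes with Rrm2 and Esco2, where 1.63% of all genes were lower and 0.917% higher. None was higher, and at an unadjusted p under 0.05 the count higher was 0 with edgeR and 0 with DESeq2. Ube2c showed the largest fall of these, log2 difference -3.75 ± 0.50 (adjusted p = 0.000501, edgeR). DESeq2 called Ccna2 and Cdk1 there. With the G2/M-positive cells left out edgeR called 0 of the members still tested, which lacked most G2/M genes.

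From the same fit, Cyp11b1-high cells had 31 of the 32 genes lower than low-both cells, all but Gins2, where 14.5% of all genes were lower. Mki67 stood at 0.925 and 0.243 CPM in 435 and 263 Cyp11b1-high cells, a log2 difference of -5.62 ± 0.68 (edgeR adjusted p = 1.16e-05). Pimreg had no UMI in either library there, and with a floor of 3 UMIs over the class its low-both level was at least 14.5-fold higher. Pcna, at 33.2 and 34.9 CPM, fell by 0.58 ± 0.09 and Mcm3 by 0.35 ± 0.10 (adjusted p = 7.66e-05 and 0.0152, edgeR). DESeq2 called 26 of the 31. Of the members still tested with the G2/M-positive cells left out, edgeR called 6, Mcm6, Pcna, Mcm2, Ccnd1, Uhrf1 and Hells.

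Against Cyp11b2-only, Cyp11b1-high cells had 9 genes lower and 1 higher. Of all genes 17.6% were lower, 15.0% were higher and 32.6% were called in either direction. The share of members called in either direction was therefore not above the background. Mcm3 was higher (24.2 and 25.7 against 13.3 and 14.6 CPM, log2 difference 0.73 ± 0.14, edgeR adjusted p = 0.000421). Lower were Ccnd1, Mcm2 and 7 G2/M genes, Mki67, Top2a, Tpx2, Aurkb, Ube2c, Kif11 and Plk1. Aurkb was at a log2 difference of -2.60 in library 1 and 0.00 in library 2, and the other 9 kept their sign in each. On the Cyp11b2-only side of library 1, 1 cell held between 75% (Kif11) and 97.75% (Mki67) of the UMIs of each of these 7 G2/M genes. The count lower was 21 with classes cut after thinning, 2 with doubled thresholds, 1 with sums of thinned cells and 0 without the library term, and with doubled thresholds Mki67 turned to 4.03. With G2/M-positive cells left out, edgeR called Mcm2 (-0.45 ± 0.12) and Ccnd1 (-0.56 ± 0.12) lower and Mcm3 (0.70 ± 0.13) and Cdk1 (1.36 ± 0.43) higher. Of the 7 G2/M genes only Tpx2 was then still tested. With all cells kept, DESeq2 called Mcm2 lower and Mcm3 higher.

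Ccnd1, the cyclin of G1 entry, was seen in 78.5% and 73.5% of Cyp11b2-only cells after thinning, 75.6% and 74.6% of low-both, 60.7% and 51.3% of Cyp11b1-high, and 14.3% and 3.85% of Aldh1a1-high cells. Its summed level was 402.5 and 343.7 CPM in Cyp11b2-only cells, 399.6 and 389.3 in low-both, 468.0 and 390.0 in intermediate, 327.2 and 212.5 in Cyp11b1-high and 105.6 and 4.92 in Aldh1a1-high cells. Low-both and Cyp11b2-only did not differ beyond their spread (log2 difference 0.04 ± 0.11, edgeR adjusted p = 0.887). Cyp11b1-high was lower than Cyp11b2-only by 0.56 ± 0.12 (adjusted p = 0.00163, edgeR), and below it in each library.

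Aldh1a1-high cells had 3 genes lower than Cyp11b2-only cells and none higher, where 15.2% of all genes were lower, so the share of members was below the background. They were Ccnd1 (log2 difference -2.69 ± 0.30, edgeR adjusted p = 2.98e-06), Mcm2 (-1.19 ± 0.32) and Hells, a chromatin remodeller (-1.88 ± 0.59). In library 1, 7 of 28 cells held the 58 Ccnd1 UMIs before thinning, 20 of them in 1 cell, and in library 2, 1 of 26 cells held 2. Of the 32 genes 15 had no UMI in the class in either library, 13 of them G2/M genes, and with 28 and 26 cells a lower level of these was not detectable at this depth. At an unadjusted p under 0.05 no gene was higher with edgeR (0) or DESeq2 (0).

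**Figure D4:**
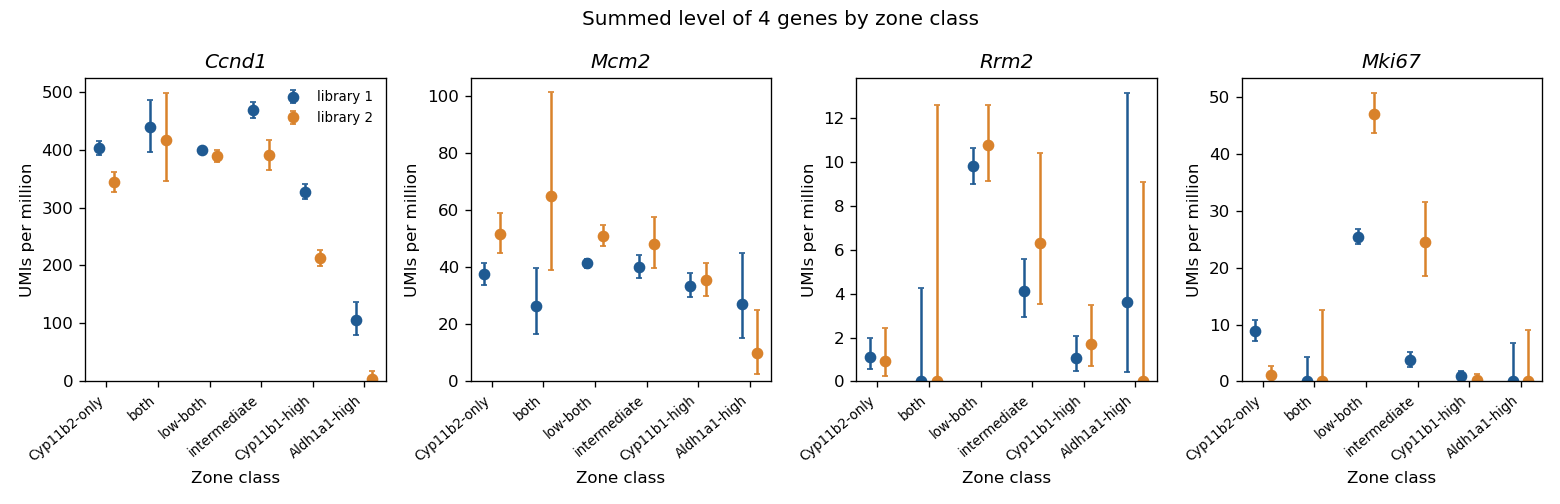
Summed level (CPM, vertical axes from 0) of Ccnd1, Mcm2, Rrm2 and Mki67 by zone class in each library, with 95% counting intervals. Ccnd1 is lowest in the Aldh1a1-high class in both libraries, at 105.6 and 4.92, and Rrm2 and Mki67 peak in the low-both class in both.

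Other genes of the cell cycle, taken from lists outside the 32, were read beside the members. In low-both against Cyp11b2-only cells, 23 of 35 other S phase genes tested and 38 of 45 other G2/M genes were higher and none of either was lower, with medians of 0.87 and 1.85 on the log2 scale. Clspn, a replication checkpoint mediator, differed by 3.20 ± 0.47, and Ckap2l, a spindle protein, by 3.87 ± 0.43 (edgeR adjusted p = 0.000186 and 9.88e-06). Of 11 genes of G1 entry 3 were higher, Ccne2, Ccne1 and Cdk4, of which Ccne2, cyclin E2, by 3.95 ± 0.56 (adjusted p = 0.000155, edgeR). Foxm1, the transcription factor of mitotic genes, and Rbl1, a pocket protein, were the 2 of 13 MuvB and E2F regulators called, both higher.

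Of the 12 inhibitors and quiescence genes, 3 were higher in low-both than in Cyp11b2-only cells, Gas1, Cdkn1c and Cdkn2c, and 1 was lower, Btg1. In Cyp11b1-high against low-both cells 1 was higher and 4 were lower, where 11.8% of all genes were higher and 14.5% lower. Cdkn1c, the inhibitor p57, was higher in Cyp11b1-high than in low-both cells by 1.05 ± 0.07 on the log2 scale, 1.08 and 1.01 in the libraries alone (edgeR adjusted p = 6.92e-09). Btg1, an antiproliferative factor, was lower there by 0.90 ± 0.09, as were Cdkn2a and Cdkn1a (0.80 ± 0.17 and 0.64 ± 0.17 lower) (adjusted p = 8e-07, 0.00157 and 0.00775, edgeR). Against Cyp11b2-only cells Cdkn1c was 1.40 ± 0.08 higher in Cyp11b1-high and 1.53 ± 0.24 lower in Aldh1a1-high cells.

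Cells with several cell cycle genes were then set against the other cells of the same class and library. Positive cells had at least 3 of the 31 genes, and each class and library with at least 10 of them entered a fit of 10601 genes, in which the members chose the cells and are not tested. The low-count filter kept 22 of 35 other S phase genes and 20 of 48 other G2/M genes. All of those kept were higher in positive cells, with medians of 1.82 and 2.68 on the log2 scale. Of all genes 6.05% were higher and 7.83% called in either direction. These genes belong to the program that chose the cells, and the filter could admit them through the positive sums alone. Their counts are therefore a description. Cdca8, a subunit of the chromosomal passenger complex, and Atad2, a chromatin factor, led the 2 lists at 4.96 ± 0.33 and 3.16 ± 0.23. Averaged over classes in each library alone, these were lower and lay apart, 3.93 and 1.10 for Cdca8 and 2.95 and 1.43 for Atad2.

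Steroidogenic genes were lower in positive cells for 8 of 17 tested and higher for none, where 1.78% of all genes were lower. The largest differences were those of Fdx1, the ferredoxin that feeds electrons to mitochondrial P450 enzymes (log2 difference -0.55 ± 0.08, edgeR adjusted p = 5.54e-05), Akr1b7, an aldose reductase-like enzyme (-0.48 ± 0.06, 6.61e-06), and Scarb1, the HDL receptor (-0.45 ± 0.07, 6.91e-05). Without library 1, 4 steroidogenic genes were called lower, and without library 2, 7. The zone signalling list had 3 of 16 lower, Agtr1a, Kcnk9 and Prkar1a, and none higher, and without library 1 it had 0 lower. Outside every list, Cenpk, Dbf4, Ncapg2 and Chek1, which act at the kinetochore, in origin firing, in chromosome condensation and in the replication checkpoint, were among the 10 genes furthest above, at 3.23 to 3.81. Among the 10 furthest below was Dhcr7, the last enzyme of cholesterol synthesis, at -0.65 ± 0.10 (adjusted p = 0.000111, edgeR).

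Low-both cells with 2 or more G2/M genes were set against the other low-both cells, a choice added after the data were seen. Star stood at 1199 and 949 CPM in the 83 and 31 G2/M-positive cells, against 2585 and 2481 in the other low-both cells. Hsd3b1, the 3β-hydroxysteroid dehydrogenase, stood at 1787 and 1216 against 4056 and 3289, and Fdx1 at 1335 and 705 against 3080 and 2333. Cyp11a1, which cleaves the cholesterol side chain, stood at 1907 and 1765 against 3199 and 3263. For each of these 4 genes both G2/M-positive values lay below both values of the other cells. In edgeR's fit 12 of 17 steroidogenic genes were lower and none higher, where 15.7% of all genes were lower. That fit has 4 sums with 1 residual degree of freedom, so it takes 1 spread for all genes and its p-values are not printed.

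Of 16 zone signalling genes 7 were lower and none higher. Wnt4 stood at 1906 and 1811 CPM against 2389 and 2182, and Shh, a hedgehog ligand of the outer cortex, at 205.2 and 292.3 against 257.8 and 305.4. Axin2, a target of canonical Wnt signalling, stood at 118.5 and 171.3 against 107.8 and 128.7, higher in both libraries without passing the test (log2 difference 0.18 ± 0.12). Cyp11b2 stood at 24.8 and 25.2 against 42.0 and 33.8 and Cyp11b1 at 35.6 and 25.2 against 34.4 and 29.3. Both enzymes were used to cut the class, so their levels in it are a description.

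Of 12 inhibitors and quiescence genes 6 were higher and 2 lower in the same cells, where 17.4% of all genes were higher. Cdkn1a, the inhibitor p21, stood at 286.7 and 235.1 CPM in G2/M-positive low-both cells against 65.2 and 50.4 in the others, and Cdkn2a at 150.8 and 142.8 against 22.95 and 19.5. After thinning, 50.6% (39.4 to 61.8) and 51.6% (33.1 to 69.9) of the G2/M-positive cells had a UMI of Cdkn1a, against 16.04% and 11.1% of the others. The broader fit did not set Cdkn1a apart (log2 difference 0.00 ± 0.26, edgeR adjusted p = 0.999). Ccnd2 was lower: it stood at 713.9 and 488.8 against 1493 and 1180, and the member Ccnd1 at 276.8 and 174.7 against 404.4 and 398.4. Foxm1, at 67.0 and 78.9 against 0.363 and 0.143, and Ccne1, at 49.65 and 50.4 against 1.16 and 1.43, were also higher there.

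**Figure D5:**
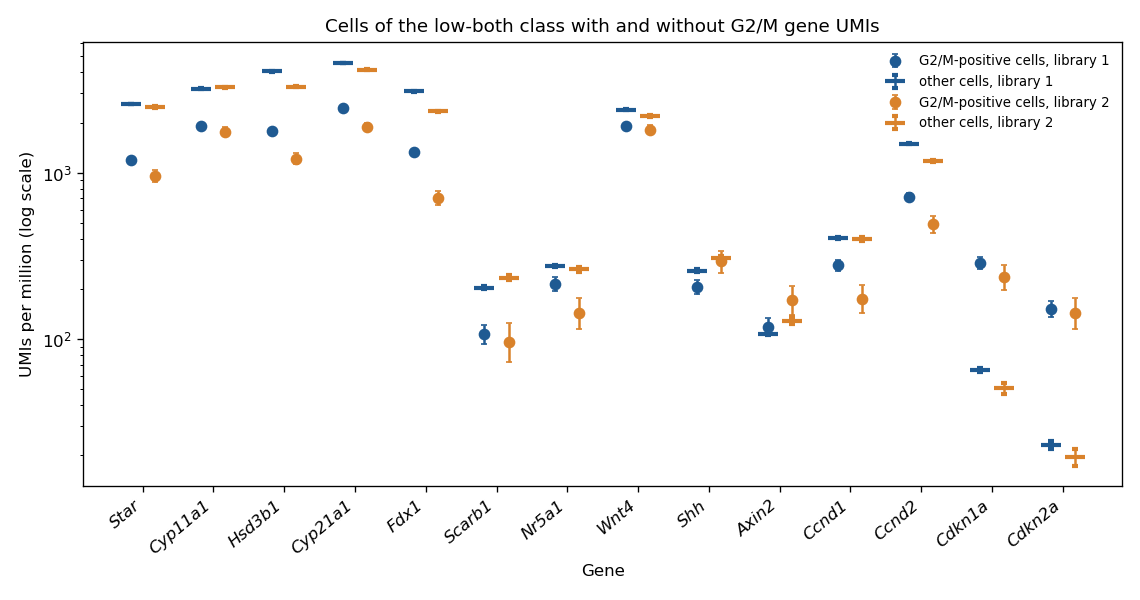
Level of 14 genes (CPM, log scale) in low-both cells with at least 2 G2/M genes (circles) and in the other low-both cells (bars) of each library, with 95% counting intervals. Star, Cyp11a1, Hsd3b1, Cyp21a1, Fdx1, Scarb1 and Ccnd2 are lower and Cdkn1a and Cdkn2a higher in the G2/M-positive cells of both libraries.

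G2/M-positive cortical cells had medians of 22884 and 17029 UMIs against 18556 and 16178.5 in the others, and 4.89% and 4.49% mitochondrial UMIs against 5.86% and 5.36%. Cells called by the same rule were removed as doublets at 1.09% and 0%, against 4.47% and 2.43%. None of the G2/M-positive cells carried 2 leukocyte markers. In them 4 of 15 leukocyte markers had UMIs in each library, summing to 3.40 and 6.999 CPM against 25.7 and 41.3 in the other cortical cells. Markers of stroma and capsule summed to 153.7 and 162.4 against 143.6 and 157.9, and those of endothelium to 10.2 and 11.2 against 9.19 and 9.96. Those of medulla summed to 0 and 1.40 against 0.203 and 0.198. Star, on which the cortical threshold rests, differed: 49.5% (38.8 to 60.1) and 64.9% (47.5 to 79.8) of G2/M-positive cells had under 1000 CPM of Star, against 6.59% and 6.71% of the others. The excess of G2/M-positive cells in the low-both class at a Star minimum of 1000 is given with the shares above. Outside the Star threshold of 200, 2 of 46 cells in library 1 (4.35%, 0.531 to 14.8) and 0 of 28 in library 2 were G2/M-positive, and none of these carried leukocyte markers.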

How the data were processed

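The authors deposited 1 matrix of UMI counts for each library, written by Cell Ranger 3.1.0 per the file headers and on mm10 per the submitters' processing notes. The deposited counts were not normalized, and how barcodes were called as cells was not stated in the sources used here. No columns of other samples were present. The members and all gene lists were chosen with earlier results of these data known.

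Barcodes under 1000 UMIs, under 500 genes or over 30% mitochondrial UMIs were left out (148 and 276). Scrublet in scanpy 1.11.5 ranked doublets, and the top 0.8% per 1000 barcodes were removed (203 and 42). Of the remaining 4689 and 1970 cells, 104 and 86 were under the Star minimum, and 217 and 281 with Star were under 5000 UMIs. Thinning drew 5000 UMIs per cell without replacement. UMIs were summed per class and library and tested with edgeR 4.0.16 (R 4.3.3): TMM, filterByExpr, the quasi-likelihood test, a library term and Benjamini-Hochberg adjustment. Classes needed 20 cells in each library, so the class with both enzymes (34 and 17 cells) could not be fitted. P-values measure how far differences between the summed groups varied between these 2 libraries, and for positive cells also between classes. Information on this spread is shared across genes. The overall difference between the libraries is taken out by the library term, and counts without that term are given below. DESeq2 1.42.0 was the alternative. Both libraries hold every class, so the library term pairs the classes of 1 library by construction. Intervals of shares are exact Clopper-Pearson, and those of differences are Newcombe's. Single-library log2 values use a prior count of 2.

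Besides the 32 members, up to 3 genes per direction were named from each list of 35 other S phase, 48 other G2/M, 12 G1 entry, 12 inhibitor and quiescence, 15 MuvB and E2F, 17 steroidogenic and 16 zone signalling genes, those with the largest log2 differences past the threshold and the same sign in both libraries. For positive cells the 10 largest changes in each direction outside the cell cycle lists, at 20 CPM or more, could be named too. Genes of the added comparison in low-both cells were chosen after their values were seen.

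On simulated counts for low-both against Cyp11b2-only (11784 genes), 93 of 98 genes changed 2-fold and 95 of 97 changed 4-fold were recovered, with 6 of 11589 unchanged genes called. For positive against other cells (10573 genes) these were 86 of 100, 99 of 99 and 11 of 10374. Every simulated gene had the same spread, and an unchanged gene had the same baseline level in all sums. Sums held mostly by 1 cell, as for the G2/M genes in Cyp11b2-only cells of library 1, were not simulated. These rates therefore do not cover such genes.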

Additional observations from a re-analysis of the deposited data

How the results depend on the processing

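Library 2 had fewer UMIs than library 1 (28023733 against 92905273) and few cells outside the low-both class, which limits the shares and sums of G2/M genes there. Leaving a library out of the zone comparison leaves no residual degrees of freedom, so only single-library values were had.

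The library term is the replicate block. Without it, low-both against Cyp11b2-only had 6 genes called (1565 with it) and 1 member higher, intermediate against Cyp11b2-only 116 (1988) and 1 higher, Cyp11b1-high against Cyp11b2-only 812 (3940) and 0 lower, Aldh1a1-high 1946 (3367), intermediate against low-both 1 (308) and 0 lower, Cyp11b1-high against low-both 288 (3192) and 17 lower, and positive cells 241 (830) with 1 steroidogenic and 0 zone signalling genes lower.

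With DESeq2, low-both against Cyp11b2-only had 810 genes and 14 members higher, Cyp11b1-high against Cyp11b2-only 1 lower, intermediate against low-both 96 genes and 2 lower, Cyp11b1-high against low-both 1958 genes, and positive cells 466 genes with 1 zone signalling gene lower. With sums of thinned cells, in the order of the block paragraph, genes called were 721, 891, 2046, 1592, 134, 1731 and 300; members called were 14 higher, 1 higher, 1 lower, 1 lower, 8 lower and 14 lower, and 1 zone signalling gene was lower. With no filter on low counts, intermediate against Cyp11b2-only had 1 member lower, Aldh1a1-high 6 lower, intermediate against low-both 622 genes and positive cells 1375.

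With classes cut after thinning, members higher were 11 in low-both, 1 in intermediate and 0 in Cyp11b1-high against Cyp11b2-only, with 21 lower in the last, and intermediate against low-both had 183 genes and 6 members lower. There Kif11 turned to -0.017 in low-both, and in intermediate Top2a turned to -0.60, Rrm2 to -1.24, Tk1 to -0.034, Ckap2l to -0.32 and Ccne2 to -0.22. With thresholds at 50% of those used, intermediate had 22 members higher than Cyp11b2-only, and against low-both 37 genes, 1 member lower and Cenpe at 0.009. With doubled thresholds, intermediate had 3 higher and 1149 genes against low-both, and Cyp11b1-high had 2 higher and 2 lower, with Mki67 at 4.03, Pbk at 0.014 and Spc25 at 5.09.

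At a Star minimum of 1000, 17 members were higher in low-both, 5 higher and 3 lower in intermediate, 8 lower in intermediate against low-both, and 526 genes were called in positive cells. Leaving out the G2/M-positive cells was added after the data were seen. Most G2/M genes then fell under the low-count filter and were not tested. Of the members still tested, low-both had 4 higher with Tpx2 at -0.21, intermediate 3 higher and Cyp11b1-high 2 higher and 2 lower. Intermediate against low-both had 0 lower with Rrm2 at 0.50. Cyp11b1-high against low-both had 6 lower with Tyms at 0.004 and Rrm2 at 0.64.

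Positive cells from at least 2 members gave 525 genes and 1 zone signalling gene lower, from at least 5 members 3899 genes, 13 steroidogenic lower, 5 zone signalling lower and 1 higher, with classes pooled 2744 genes, and from the G2/M set 3970 genes, 7 zone signalling lower and Gria3 at 0.01. Leaving out a library gave 136 to 761 genes, 4 to 7 steroidogenic and 0 to 2 zone signalling genes lower, the lowest values without library 1.

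The share with at least 3 members, low-both minus Cyp11b2-only, was 12.04 and 10.7 points thinned to 10000 UMIs, 11.6 unthinned in library 1, and 8.23 and 9.44 with 2 members. Minus Cyp11b1-high it was 10.99 (10000 UMIs, library 2), 9.73 and 11.6 unthinned, and 9.67 with 2 members in library 2. The G2/M share minus Cyp11b2-only in library 1 was 3.60 at 10000 UMIs, 4.59 unthinned and 0.789 at the higher Star minimum. Minus Cyp11b1-high it was 4.83 unthinned in library 2, and 0.702 and 0.969 at the higher Star minimum. The cause of these changes was not tested.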
